A study of Mus musculus with 8 samples.

Results

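The 10 genes described here encode the lipases, phosphatidate phosphatases, acyltransferases and lysophospholipid carrier through which liver makes and breaks down glycerolipids: Lpl, Lipc, Lipg, Lipa, Gpam, Lpin1, Lpin2, Dgat1, Dgat2 and Mfsd2a. They were taken by name from the 15834 genes tested, through the RefSeq accession that the array gives for each probe, and all 10 were found and tested. Whole livers of 8 mice were profiled on 1-colour Agilent arrays, 1 array per mouse, in 4 groups of 2 mice, one for each sex of the AKP and of the AKP::Keap1 genotype. Every mouse carried an activated oncogene and mutant p53 (R172H) expressed in the liver, so the AKP mice that serve as controls are not wild type. The AKP::Keap1 mice also had Keap1 deleted. Keap1 is the adaptor that marks the transcription factor Nrf2 for degradation. The labels name 1 mouse per array, so p-values rest on the spread between the 2 mice of a group. Those 2 mice shared a slide, so differences between slides are not part of that spread. The series asks how this deletion acts on bile duct cancer driven by the other alleles. Neither the ages of the mice nor the promoter behind the alleles was given in the sources used here, nor was the time since feeding.

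Triglyceride arrives at the liver in lipoproteins, whose lipids are cut at the vessel wall by lipoprotein lipase and its relatives hepatic lipase and endothelial lipase. Inside hepatocytes it is built from glycerol phosphate in steps: Gpam adds the first fatty acid, the lipins remove the phosphate from phosphatidate to give diacylglycerol, and Dgat1 and Dgat2 add the last fatty acid. Lysosomal acid lipase, from Lipa, frees the lipids that reach lysosomes, and Mfsd2a carries lysophosphatidylcholine into cells and is known in liver as a gene induced by fasting.

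Levels below are log2 of the processed intensity minus the 75th percentile of the same array, so that a step of 1 is a doubling. A difference is a difference between such levels, with the standard error (SE) of the limma fit, and a gene is called where its Benjamini-Hochberg adjusted p over all 15834 genes was below 0.05. Between 65.7% and 70.7% of spots per array were well above background, none was saturated, and the 2 mice of a group had a Pearson's r of 0.9895 to 0.9919 over genes (genes are no independent replicates). Keap1 itself had group means of 1.89 in AKP males and 1.59 in AKP females, against -1.49 and -0.74 in the AKP::Keap1 mice of either sex. Its difference was -2.85 ± 0.11 (SE, adjusted p = 0.00018). Each group lay on a slide of its own, so slide and group cannot be told apart.

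With Keap1 deleted, most of these genes were lower. Over both sexes 8 of the 10 were called lower and none higher: Lipc, Lipg, Gpam, Lpin1, Lpin2, Dgat1, Dgat2 and Mfsd2a. Of these, Mfsd2a fell in males alone (-3.37, against 0.58, not called, in females), so its mean describes neither sex. The median difference of the 10 was -1.14, against 0.00 for all genes tested, of which 17.4% were called lower. Lipg passed the filter on dim probes through the AKP arrays alone, so that a gene high in those had to be lower in the others; of the other 9 genes 7 were called lower. In 7 of the 10, the same genes without Mfsd2a, all 4 AKP::Keap1 arrays lay below all 4 AKP arrays, a pattern found in 11.5% of all genes. Lipg is among these 7 and among the calls in each sex below, where it supports nothing further for the same reason. Lpl and Lipa were not called. Without any 1 array, between 8 and 9 of the 10 were called by genotype. In males 8 members were called lower (12.5% of all genes), with a median of -1.15 against -0.04 for all genes. In females 4 were called lower (8.94% of all genes), Lipc, Gpam and Lpin2 beside Lipg, with a median of -0.49 against 0.06. Leaving out AKP male 1 took the male count to 3, leaving out AKP male 2 or AKP::Keap1 male 1 to 4, and leaving out AKP::Keap1 male 2 to 5. The female count was 2 without AKP female 1 or either AKP::Keap1 female.

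**Figure D1:**
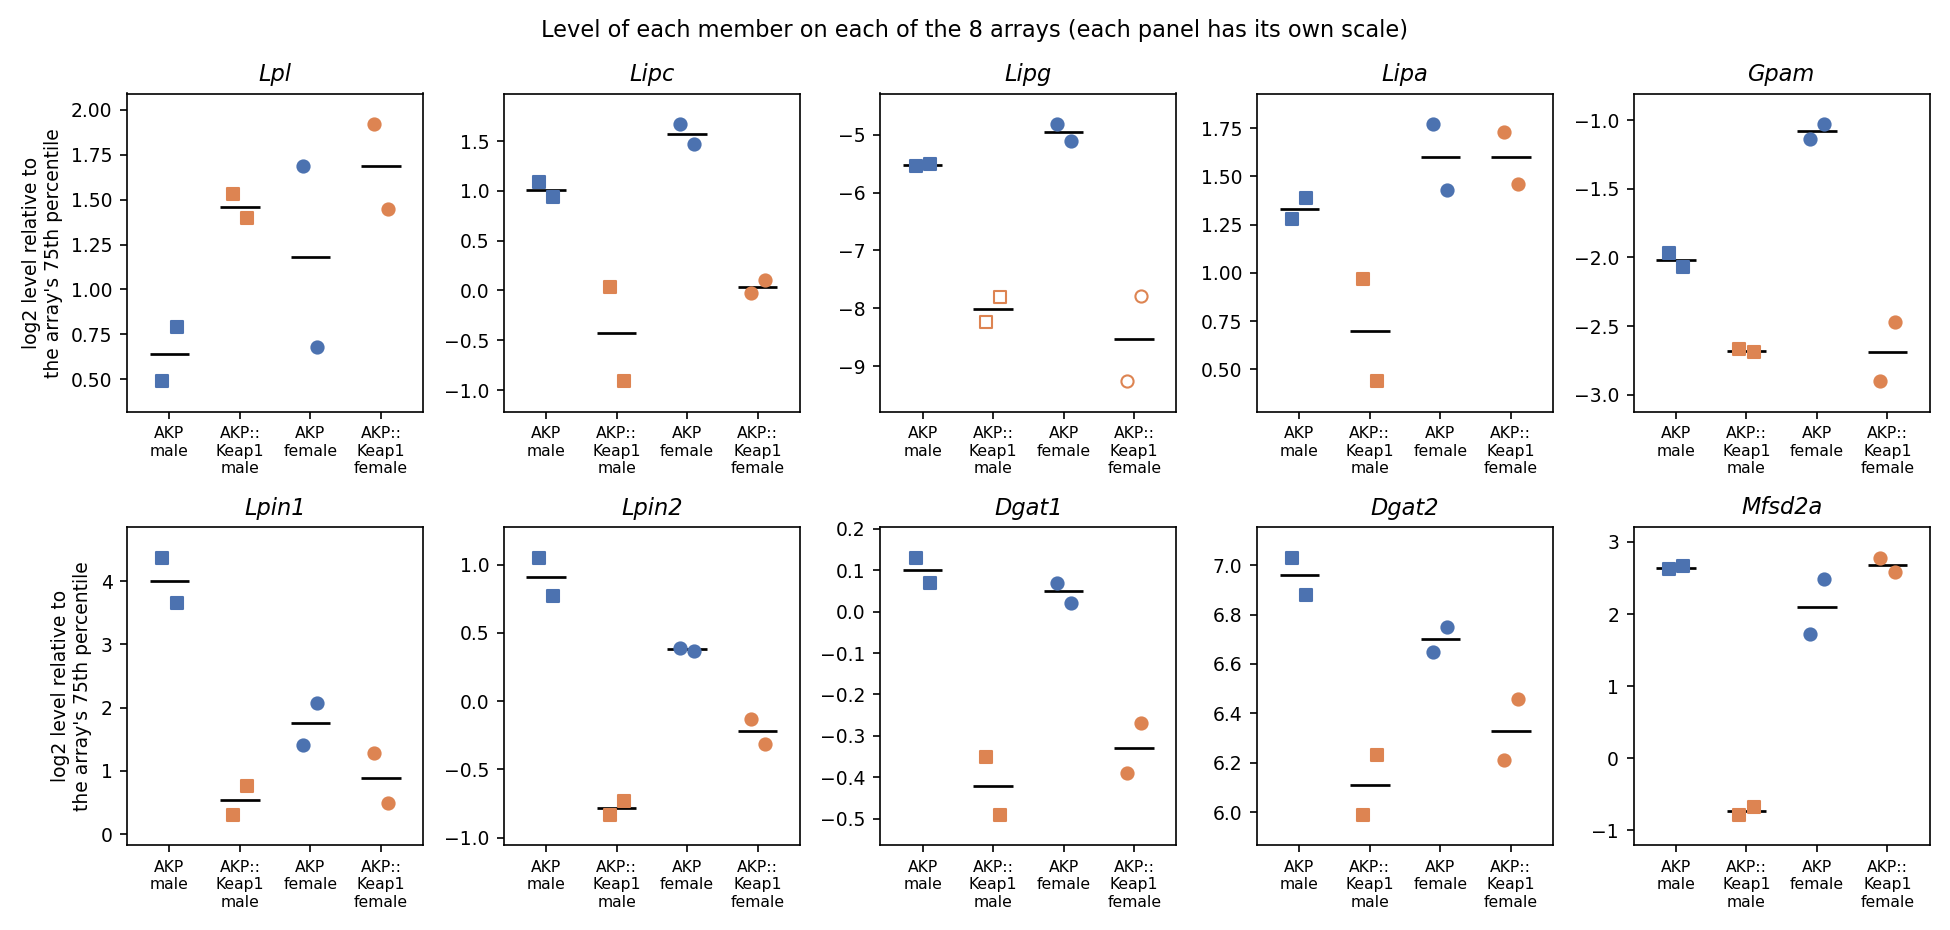
Level of each of the 10 genes on each of the 8 arrays, as log2 relative to the array's 75th percentile, with a scale of its own in each panel; squares are males, circles females, blue AKP and orange AKP::Keap1, and the line is the mean of 2 mice. Open symbols mark Lipg, which was not well above background on any AKP::Keap1 array; Mfsd2a is low in the AKP::Keap1 males alone (-0.78 and -0.68).

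These are whole livers, in which fewer cells of a type and less RNA per cell cannot be told apart. Levels of several cell type markers differed with genotype. Of 15 hepatocyte markers, 9 were called lower and none higher, against 17.4% and 21.7% of all genes. Their summed level, on a linear scale with the array's 75th percentile as 1, was 2540 to 2900 in the males of AKP and 1690 to 1750 in those of AKP::Keap1, and 2020 to 2080 and 1590 to 2070 in the females. Of 12 bile duct markers, 10 were called higher (21.7% of all genes were called higher) and none lower, and their sum rose from 7.77 to 8.93 in the AKP males to 72.1 to 83.8 with Keap1 deleted. In females it went from 3.34 to 8.97 to 38.6 to 81.8. Of 14 endothelial markers, 5 were called lower (17.4% of all genes). Their sums were 51.1 to 51.7 and 40.7 to 42.2 in the AKP and AKP::Keap1 males and 49.8 to 54.0 and 48.3 to 49.9 in the females. Of 13 macrophage markers tested, 4 were called higher and 1 lower (21.7% and 17.4% of all genes). Sums over the 14 on the array, tested or not, were 82.3 to 121 and 70.5 to 112 in AKP and AKP::Keap1 males, and 134 to 169 and 142 to 206 in females. Of 7 adipocyte markers tested, 2 were called higher (21.7% of all genes). Sums over all 10 listed, 3 of them never well above background, were 6.07 to 7.19 over all arrays. Of 11 stellate cell and fibroblast markers 7 were called higher and 2 lower (21.7% and 17.4% of all genes). The part of these shifts in the results below was not tested.

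Among the lipases of the vessel wall, Lipc and Lipg fell while Lpl did not. Lipc encodes hepatic lipase, which hepatocytes secrete and which acts on remnant particles and high-density lipoprotein. Its level was 1.09 and 0.94 in the AKP males, 0.04 and -0.91 in the AKP::Keap1 males, 1.67 and 1.47 in the AKP females and -0.03 and 0.11 in the AKP::Keap1 females. All 4 AKP::Keap1 arrays were lower than any AKP array. Hepatic lipase fell 2.81-fold (-1.49 ± 0.21, SE, adjusted p = 0.0039), and the difference was about as large in males (-1.45 ± 0.30, adjusted p = 0.020) as in females (-1.53 ± 0.30, adjusted p = 0.020). The difference between the sexes in that effect was -0.08, with a 95% interval of -1.11 to 0.95, and it turned positive with arrays centred on their median (0.12) and without AKP::Keap1 male 1 or AKP female 1 (0.02 to 0.39). The call in males was lost without AKP male 1 or AKP male 2, with the unshifted signals (-0.93, adjusted p = 0.074) and with male arrays alone (adjusted p = 0.053), and the call in females without each female array in turn, whereas the call over both sexes was kept without each of the 8 arrays.

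Lipg encodes endothelial lipase, a phospholipase of high-density lipoprotein. It was at -5.54 and -5.50 in AKP males and -4.82 and -5.11 in AKP females, well above background on all 4 arrays. On the 4 AKP::Keap1 arrays it was not well above background, with measured levels of -8.24 and -7.81 in males and -9.26 and -7.79 in females. The fall is therefore given as a bound, the AKP mean against the dimmest signal still well above background on each AKP::Keap1 array: at least 3.02-fold lower over both sexes (measured means -5.24 and -8.27, adjusted p = 0.0019), at least 2.48-fold in males (adjusted p = 0.014) and at least 3.67-fold in females (adjusted p = 0.0070). These calls rest on values below background and on a gene that only the AKP arrays brought through the filter, so they describe and support nothing further. The bounds are tied to the processed signal and to that dimmest signal of any probe. Where the detection limit of the Lipg probe itself was higher, the fall could be smaller. After normexp, which raises dim values, the differences were -0.90 over both sexes, -1.14 in males and -0.66 in females, all smaller than the bounds. The male call was lost without each male array in turn. Endothelial markers were called lower in 5 of 14 (17.4% of all genes), beside this result.

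Lpl encodes lipoprotein lipase, which releases fatty acids from triglyceride-rich lipoproteins and is made mainly outside the adult liver, in fat and muscle. It had 0.49 and 0.79 in AKP males, against 1.53 and 1.40 in AKP::Keap1 males, and 1.69 and 0.68 in AKP females and 1.92 and 1.45 in AKP::Keap1 females. Both AKP::Keap1 males were above both AKP males, while the female groups overlapped. The difference of 0.66 ± 0.25 (adjusted p = 0.075) was not called, in males (0.82 ± 0.35, adjusted p = 0.12) or in females (0.50 ± 0.35, adjusted p = 0.34) either. It was called without AKP female 1 (0.92, adjusted p = 0.016), after normexp background correction (0.72, adjusted p = 0.025) and with the unshifted signals (0.98, adjusted p = 0.024). A second probe for the gene gave 0.04 over both sexes, 0.39 in males and -0.30 in females, so the direction in females rests on the probe; without AKP female 2 the female difference of the first probe was -0.01. In males it was also called after normexp (0.96, adjusted p = 0.033), with the unshifted signals (1.35, adjusted p = 0.029), with male arrays alone (adjusted p = 0.036) and without either AKP female array (adjusted p = 0.045).

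Markers of fat and muscle, where lipoprotein lipase is abundant, moved as follows. Of the adipocyte markers Adipoq, Lep and Plin1 were not well above background on any array. Cidea (3.18 ± 0.39, SE, adjusted p = 0.0027) and Pparg (0.62 ± 0.11, adjusted p = 0.0085) were called higher in AKP::Keap1 mice, against 21.7% of all genes. The Pparg difference was 1.36 in males and -0.11 in females, and its interaction was called (-1.47, adjusted p = 0.046), so its mean describes neither sex. The other 5 tested were not called: Cfd (1.63), Cidec (0.20), Retn (0.04), Adrb3 (-0.20) and Fabp4 (-0.36). All 7 were chosen for mention after their values were seen. Of 8 muscle markers 3 were tested and 2 of them called higher (21.7% of all genes), Acta1 (1.43 as measured) and Tnni2 (1.36). Des (-0.09) was not called. Acta1 was well above background on all 4 AKP::Keap1 arrays and on no AKP array. It passed the filter through the AKP::Keap1 arrays alone, where it is high, so its call supports nothing further. These 3 were also named after their values were seen. Actn2, Ckm and Myh4 were not well above background on any array. The summed level of all 8 muscle markers, tested or not, was 0.178 to 0.205 and 0.258 to 0.286 in the AKP and AKP::Keap1 males. In the females it was 0.201 to 0.209 and 0.318 to 0.435. The part of these markers in the Lpl values was not tested.

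Lysosomal acid lipase had the smallest genotype difference of the 10 genes. Among males Lipa had 1.28 and 1.39 in AKP mice and 0.97 and 0.44 in AKP::Keap1 mice, with no overlap between them. In females the groups overlapped, with 1.77 and 1.43 in AKP and 1.73 and 1.46 in AKP::Keap1. The differences were -0.63 ± 0.22 in males (adjusted p = 0.077) and 0.00 ± 0.22 in females (adjusted p = 1), and -0.31 ± 0.16 over both (adjusted p = 0.16). The 95% interval over both sexes, -0.70 to 0.07, leaves room for a fall. With the array median as reference the difference was called, at -0.55 (adjusted p = 0.024), while the median of all genes moved to -0.24 under the same scaling, and with the unshifted signals it was 0.00. In females the sign was not settled, being -0.17 when AKP female 2 was left out, -0.13 for AKP::Keap1 female 1 and 0.17 for AKP female 1.

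**Figure D2:**
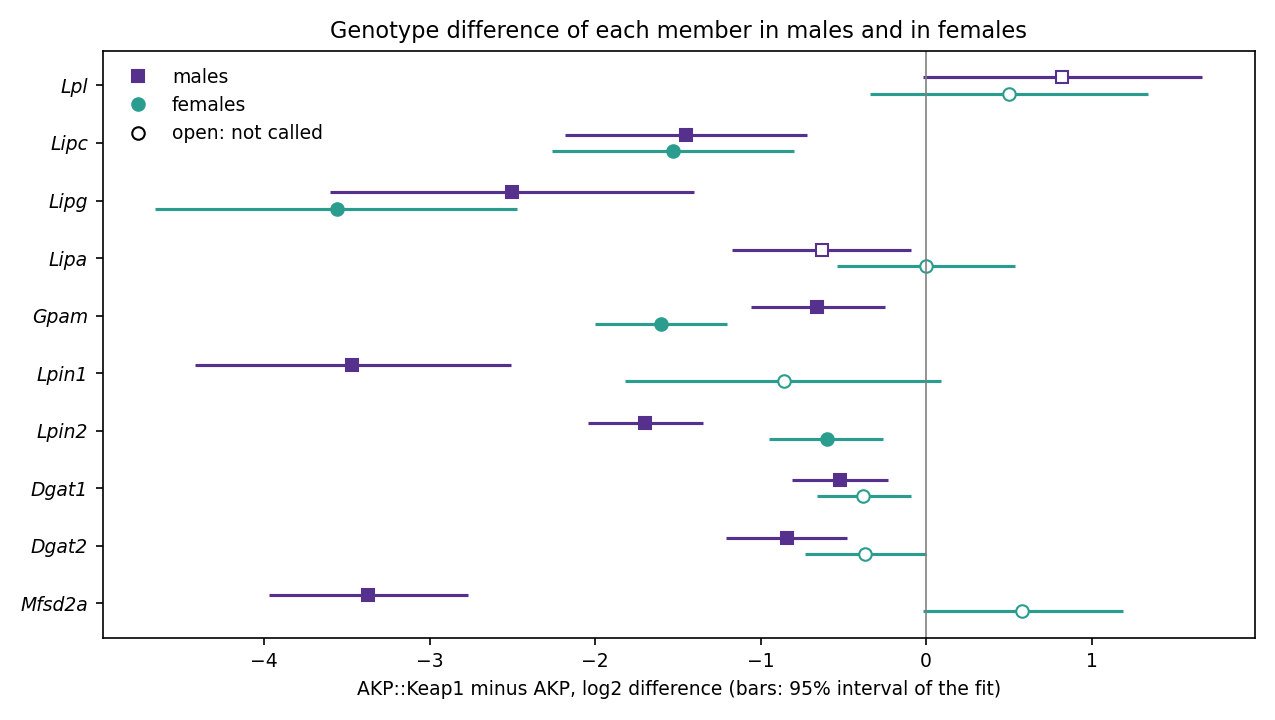
AKP::Keap1 minus AKP difference of each of the 10 genes on the log2 scale, in males (squares) and in females (circles), 2 mice per group; bars are 95% intervals of the fit, filled symbols are called and open symbols are not. Lpin1 and Mfsd2a lie at -3.47 and -3.37 in males and at -0.86 and 0.58 in females.

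Gpam, the mitochondrial acyltransferase that starts glycerolipid synthesis, was lower in AKP::Keap1 mice of both sexes. Among males its level was -1.97 and -2.07 in AKP mice and -2.67 and -2.69 in AKP::Keap1 mice. In females it was -1.14 and -1.03 in AKP and -2.90 and -2.47 in AKP::Keap1, so that AKP females were highest of the 4 groups and the AKP::Keap1 groups of both sexes lay together. The difference over both sexes was -1.13 ± 0.12 (SE, adjusted p = 0.0018), with -0.66 ± 0.17 in males (adjusted p = 0.033) and -1.60 ± 0.17 in females (adjusted p = 0.0043). The test of the difference between the sexes did not reach the threshold (-0.95 ± 0.23, adjusted p = 0.095). The male call was lost without each male array and without either AKP female array (-0.71 to -0.61, adjusted p 0.050 to 0.13), and with the unshifted signals (-0.14, adjusted p = 0.68).

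Both lipins fell, with larger values in males than in females. Lpin1 and Lpin2 both dephosphorylate phosphatidate, and the lipin 1 protein is also known as a nuclear partner of Ppargc1a and Ppara in the fasting response. Lpin1 was highest in the AKP males, at 4.37 and 3.65, and had 0.31 and 0.76 in the AKP::Keap1 males. It was at 1.41 and 2.08 in AKP females and 1.28 and 0.49 in AKP::Keap1 females, the AKP females lying just above, and the AKP::Keap1 groups of both sexes overlapping. Over both sexes Lpin1 fell 4.49-fold (-2.17 ± 0.28, SE, adjusted p = 0.0031). It was -3.47 ± 0.39 in males, an 11.1-fold fall (adjusted p = 0.0042), and -0.86 ± 0.39 in females, not called (adjusted p = 0.16). The difference between the sexes, 2.61 ± 0.56, had an adjusted p of 0.075 and was not called, although it was with normexp (0.043), with the array median (0.046) and with a trended, robust variance (0.044). A second, dimmer probe gave -2.35 over both sexes, -3.45 in males and -1.25 in females.

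Lpin2 followed the same order. Its levels were 1.05 and 0.77 in AKP males, 0.39 and 0.37 in AKP females, -0.13 and -0.31 in AKP::Keap1 females and -0.83 and -0.73 in AKP::Keap1 males, with no overlap between any 2 groups. The fall was -1.15 ± 0.10 over both sexes (SE, adjusted p = 0.0012), the smallest adjusted p of the 10 genes, with -1.70 ± 0.14 in males (adjusted p = 0.0018) and -0.60 ± 0.14 in females (adjusted p = 0.032). The difference between the sexes was 1.09 ± 0.20 (adjusted p = 0.062, and 0.032 to 0.042 with normexp, the array median and the trended, robust variance). The female call was lost without each female array and without either AKP::Keap1 male array (-0.69 to -0.52, adjusted p 0.059 to 0.13), with the unshifted signals (-0.50, adjusted p = 0.061) and with female arrays alone (adjusted p = 0.078), whereas the male calls of Lpin1 and Lpin2 were kept without each of the 8 arrays.

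The proximal promoters of the lipins, which fell together, and of Mfsd2a, whose difference was not the same in both sexes, are shown, each running from 250 bases before to 50 bases after an annotated start site, 5′ to 3′ on the gene's own strand (RefSeq, GRCm38.p6). Of the 10 genes, 6 had entries, 10 promoters in all. Both strands were searched for an antioxidant response element core (TGACNNNGC, the kind of site Nrf2 binds), an E-box (CACGTG), a sterol response element (TCACNNCAC), a glucocorticoid receptor site (ACANNNTGT) and a nuclear receptor direct repeat (AGGTCA and again AGGTCA, 1 base apart). The 10 promoters held 1 match, the E-box in capitals in the first of the 3 Lpin2 promoters, 9 bases before the start site. Among 32851 promoters of this length, 12.4%, 7.15%, 3.77%, 6.85% and 0.0396% held the motifs in the order given. No match says only that these letters are not in these windows.
Lpin1, chr12:16610917-16611216, minus strand: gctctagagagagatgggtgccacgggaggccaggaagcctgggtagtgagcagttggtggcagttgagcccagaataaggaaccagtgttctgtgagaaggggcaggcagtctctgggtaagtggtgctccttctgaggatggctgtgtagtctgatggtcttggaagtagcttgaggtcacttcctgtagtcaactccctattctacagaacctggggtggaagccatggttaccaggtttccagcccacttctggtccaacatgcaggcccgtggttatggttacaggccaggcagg
Lpin2, chr17:71183282-71183581, plus strand: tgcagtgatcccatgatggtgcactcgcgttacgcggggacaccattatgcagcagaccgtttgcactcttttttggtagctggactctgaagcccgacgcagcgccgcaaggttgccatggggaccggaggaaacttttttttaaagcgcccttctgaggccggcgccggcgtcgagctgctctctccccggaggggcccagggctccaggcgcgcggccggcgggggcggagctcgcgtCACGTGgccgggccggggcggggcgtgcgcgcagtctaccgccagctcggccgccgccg
Mfsd2a, chr4:122961139-122961438, minus strand: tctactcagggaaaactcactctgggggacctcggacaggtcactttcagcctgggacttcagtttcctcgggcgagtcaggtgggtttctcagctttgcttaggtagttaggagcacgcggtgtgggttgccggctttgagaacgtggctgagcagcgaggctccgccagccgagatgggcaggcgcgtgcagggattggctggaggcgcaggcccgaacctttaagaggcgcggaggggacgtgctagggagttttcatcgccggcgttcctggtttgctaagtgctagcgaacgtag

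The acyltransferases of the last step, which join a fatty acid to diacylglycerol, also fell. Dgat1 was at 0.13 and 0.07 in AKP males, against -0.35 and -0.49 in AKP::Keap1 males, and 0.07 and 0.02 in AKP females and -0.39 and -0.27 in AKP::Keap1 females. Dgat2, known as the isozyme that works on newly made fatty acids, was at 7.03 and 6.88, 5.99 and 6.23, 6.65 and 6.75, and 6.21 and 6.46 in the same groups. For both genes all 4 AKP::Keap1 arrays were lower than any AKP array. The differences were -0.45 ± 0.08 for Dgat1 (SE, adjusted p = 0.0087) and -0.60 ± 0.11 for Dgat2 (adjusted p = 0.0075), that is 1.37-fold and 1.52-fold. Both were called in males (-0.52 ± 0.12, adjusted p = 0.025; -0.84 ± 0.15, adjusted p = 0.014) and not in females (-0.38 ± 0.12, adjusted p = 0.067; -0.37 ± 0.15, adjusted p = 0.13). The differences between the sexes were 0.14 (95% interval -0.26 to 0.54) and 0.48 (-0.04 to 0.99), neither called.

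These small falls depended on the scaling between arrays. With the unshifted signals, under which the median of all genes was 0.31, Dgat1 was at -0.14 over both sexes and at 0.00 in males and Dgat2 at -0.29, none of them called. After quantile normalization Dgat2 was at -0.41 (adjusted p = 0.078). In males, Dgat1 also lost its call without each male array (-0.59 to -0.45) and with male arrays alone (adjusted p = 0.052), and Dgat2 without AKP male 1 or AKP::Keap1 male 1 (-0.77 to -0.73).

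Mfsd2a, the lysophosphatidylcholine carrier, was the only member whose genotype difference was called as differing between the sexes. The AKP males had 2.62 and 2.66 and the AKP::Keap1 males -0.78 and -0.68. In females it was at 1.72 and 2.48 in AKP and at 2.78 and 2.58 in AKP::Keap1. The AKP::Keap1 males thus stood apart, and the other 3 groups lay between 1.72 and 2.78. In males Mfsd2a fell 10.3-fold (-3.37 ± 0.25, SE, adjusted p = 0.0012), and in females the difference was 0.58 ± 0.25 and was not called (adjusted p = 0.14). The interaction, the female difference minus the male one, was 3.95 ± 0.35 (adjusted p = 0.017). It was the 1 member of 10 called there, against 1.66% of all genes (263 of 15834). The mean over both sexes, -1.39 ± 0.18 (adjusted p = 0.0029), therefore describes neither sex, and with the slide as a random block it was not called (adjusted p = 0.22). That fit has genotype and sex as separate terms, so the Mfsd2a interaction adds to its spread. The lost call therefore says nothing about the slide.

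The call of the Mfsd2a interaction rested on all 8 arrays. Without each of the 8 arrays in turn it lay between 3.57 and 4.33, with an adjusted p of 0.050 to 0.072 in every such fit, so that it was lost each time. In the same fits 0 to 29 of all genes were called. The fall in males was called under every alternative run, with -3.71 to -2.85. The female difference was called without AKP female 2 (0.96, adjusted p = 0.044). Because each group of 2 mice lies on 1 slide, a slide effect on the AKP::Keap1 males cannot be told apart from this pattern.

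**Figure D3:**
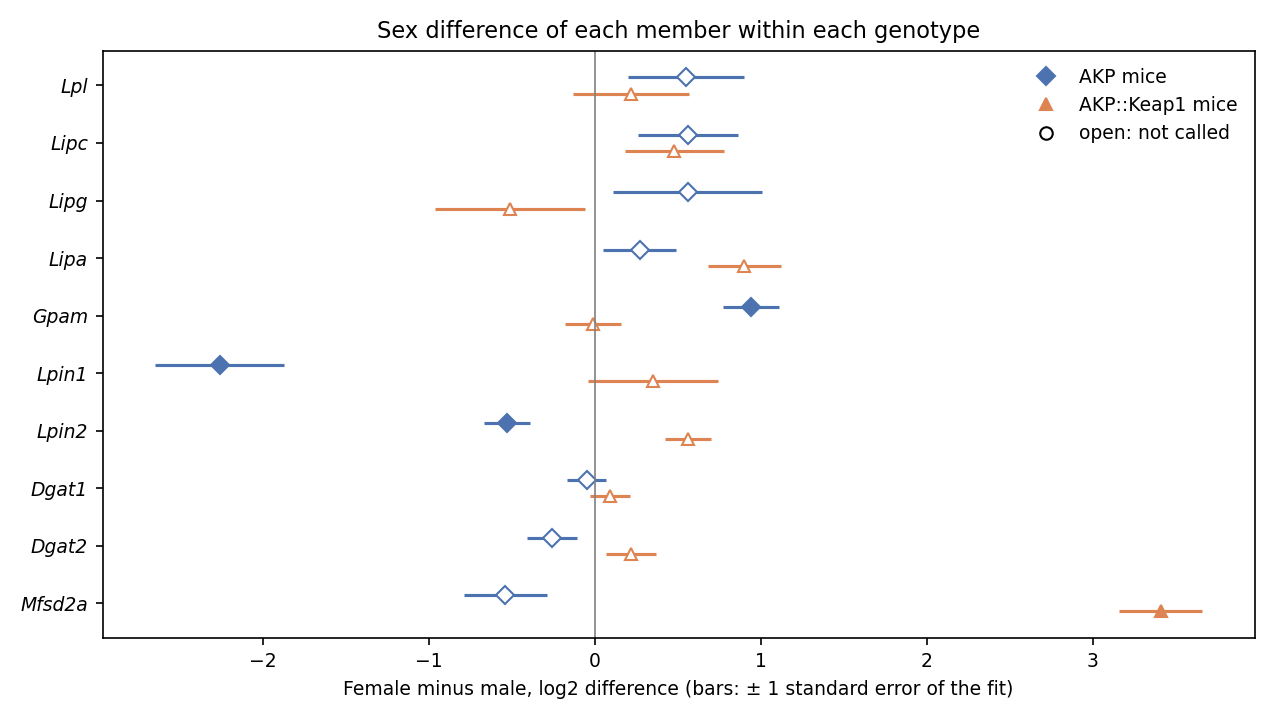
Female minus male difference of each of the 10 genes on the log2 scale within AKP mice (diamonds) and within AKP::Keap1 mice (triangles), 2 mice per group; bars are 1 standard error of the fit on each side, filled symbols are called. Lpin1 lies at -2.26 in AKP mice and 0.35 in AKP::Keap1 mice, and Mfsd2a at -0.54 and 3.41.

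Read the other way, as female minus male, members were called in both directions. Over both genotypes 3 members were called higher in females, against 10% of all genes: Mfsd2a (1.44 ± 0.18, adjusted p = 0.0072), Lipa (0.58 ± 0.16, adjusted p = 0.047) and Gpam (0.46 ± 0.12, adjusted p = 0.039). None was called lower, and Lpin1 had -0.95 ± 0.28 (adjusted p = 0.056). Within AKP mice, a comparison added after the data were seen, 3 members were called (19.9% of all genes): Gpam was higher in females (0.94 ± 0.17, adjusted p = 0.018) while Lpin1 (-2.26 ± 0.39, adjusted p = 0.017) and Lpin2 (-0.53 ± 0.14, adjusted p = 0.047) were lower. Within AKP::Keap1 mice the only call was Mfsd2a, higher in females (3.41 ± 0.25, adjusted p = 0.0019), against 3.82% of all genes. In those mice Gpam (-0.01 ± 0.17) and Lpin1 (0.35 ± 0.39) were not called, and Lpin2 (0.56 ± 0.14, adjusted p = 0.092) was not called either. Whether the sex difference itself differed between the genotypes is the interaction given above, called for Mfsd2a alone.

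Mfsd2a kept its sex call over both genotypes in 17 of 18 alternatives, losing it with the slide as a random block (adjusted p = 0.28), and its call within AKP::Keap1 mice in 15 of 15 (3.04 to 3.51). The slide block has no interaction term, so the Mfsd2a interaction adds to the spread in that fit. Lipa lost its call without each array but AKP::Keap1 male 1, and Gpam without each array but AKP::Keap1 female 1, so that 1 member was called in 6 of the 8 such fits: those without AKP male 1, AKP male 2, AKP::Keap1 male 2, AKP female 1, AKP female 2 or AKP::Keap1 female 2. Within AKP mice, Gpam lost its call without each AKP array, Lpin1 without AKP male 1 or AKP female 1 (-1.92 to -1.90) and Lpin2 without each of the 8 arrays. The arrays of one sex were scanned on another day than those of the other, so scan day and sex cannot be told apart.

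Over the 8 arrays, which share 4 group means, Pearson's r between members called lower over both sexes ranged from 0.34 to 0.95. Mfsd2a, which fell in males alone, is among these members. It was 0.95 between Lpin2 and Dgat2, 0.93 between Lipc and Dgat1 and 0.92 between Lpin1 and Lpin2. It was 0.36 between Gpam and Lpin1, 0.35 between Gpam and Mfsd2a and 0.34 between Lipg and Mfsd2a, and -0.79 between Lpl and Lpin1. The genes outside the set most like Lpin1 over the 8 arrays were Fbxo33 (r = 0.996), Uox (0.990) and Ywhae (0.987). For Mfsd2a they were Hsd17b7 (0.970), Tlcd3b (0.968) and Nme3 (0.964), for Lipc Rbm4b, Immt and Efr3a (0.990 to 0.985) and for Gpam Zfp143, Trp53rka and Rnps1 (0.989 to 0.988). With 8 arrays and 15834 genes such values are a description only.

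The neighbouring pathways were read through 8 lists with 130 tested genes in all. The lipogenic list, the regulators and enzymes that make fatty acids, moved down with the members: 10 of 17 were called lower and 1, Srebf2, higher, with a median of -0.73, against 17.4% and 21.7% of all genes. The 2 probes of Srebf2 disagreed (0.37 and -0.33). Fasn, fatty acid synthase, fell by 1.45 ± 0.15 on the log2 scale (SE, adjusted p = 0.0018). Elovl6, which elongates its product, had -1.65 ± 0.20 (adjusted p = 0.0027), with -2.77 in males and -0.52, not called, in females. Pklr, the pyruvate kinase of liver, had -1.91 ± 0.13 (adjusted p = 0.00061). Insig1, which holds the sterol-regulated activators in the endoplasmic reticulum, had -0.98 ± 0.09 (adjusted p = 0.0015). In males 11 of the 17 were called lower (12.5% of all genes), with a median of -1.18. In females 2 were, near the share of all genes (8.94%), with a median of -0.19. Fasn was at 1.48 and 1.19 in AKP males, against -1.10 and -0.95 in AKP::Keap1 males, and -0.51 and 0.05 in AKP females and -0.84 and -0.71 in AKP::Keap1 females. Its interaction, 1.82 (adjusted p = 0.0499), was the only one called among the lists' pathway genes, and it was lost without each of the 8 arrays (1.54 to 2.10, adjusted p 0.092 to 0.15). The list's 11 calls became 7 without AKP::Keap1 male 1 and 6 without AKP female 2.

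**Figure D4:**
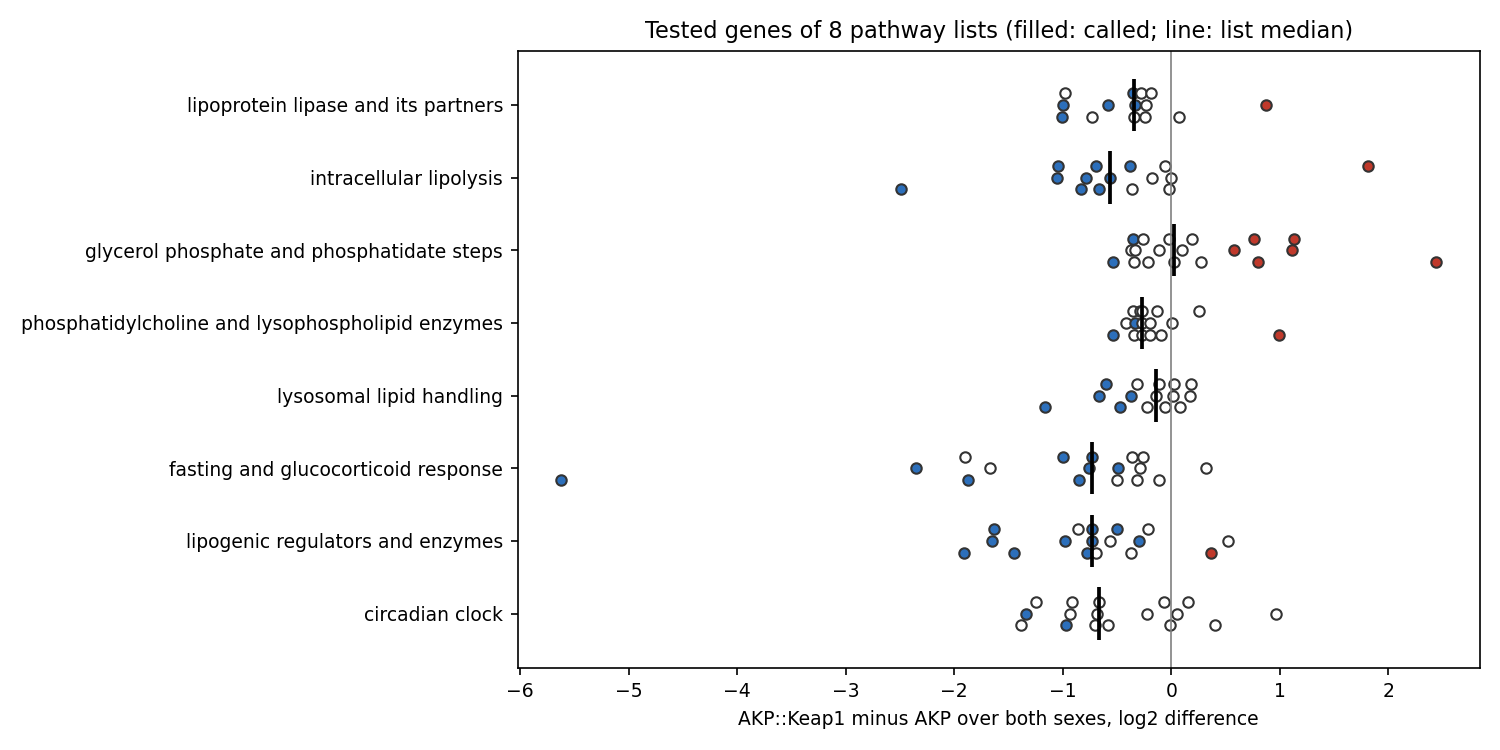
AKP::Keap1 minus AKP difference over both sexes, on the log2 scale, of each tested gene in 8 pathway lists; each point is a gene, filled red where called higher, filled blue where called lower and open where not called, and the black line is the list's median. Points are spread vertically for legibility only; the glycerol phosphate and phosphatidate list is the one with more genes called higher (6) than lower (2).

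In the intracellular lipolysis list 9 of 15 genes were called lower and 1 higher, with a median of -0.56, against 17.4% and 21.7% of all genes. The best known lipases of stored triglyceride were not called: Pnpla2, adipose triglyceride lipase, had -0.02 ± 0.11, Lipe, hormone-sensitive lipase, -0.06 ± 0.19, and Abhd5, the activator of Pnpla2, 0.00 ± 0.26, with probes that disagreed (-0.81 to 0.00). Among the 9 genes called lower were Plin2 (-1.05) and Plin5 (-0.67), coat proteins of lipid droplets, and G0s2 (-0.79), an inhibitor of Pnpla2. The Plin5 difference was -1.38 in males and 0.03 in females, with the interaction not called (adjusted p = 0.060). These 6 genes were chosen after their values were seen. Pnpla3, a lipid droplet acylhydrolase, had the largest fall (-2.49 ± 0.31, adjusted p = 0.0027). It was at 0.10 and -0.94 in AKP males and -1.54 and -0.55 in AKP females, against -3.39 and -3.10 in AKP::Keap1 males and -3.33 and -3.09 in AKP::Keap1 females. Mgll, which cuts monoacylglycerol, had -1.04 ± 0.19 (adjusted p = 0.0088) and Aadac, a microsomal esterase, -0.83 ± 0.11 (adjusted p = 0.0030). The 1 gene called higher was Ces1g, a carboxylesterase of liver (1.81 ± 0.18, adjusted p = 0.0016).

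The glycerol phosphate and phosphatidate list, which holds the isozymes and neighbours of Gpam, the lipins and the Dgat enzymes, had 6 of 19 genes called higher, 2 lower and a median of 0.03, against 21.7% and 17.4% of all genes. Lpin3, the third lipin, was at -1.02 and -0.74 in AKP males and -0.61 and -1.15 in AKP females, against 0.20 and 0.09 in AKP::Keap1 males and 0.22 and 0.42 in AKP::Keap1 females. It thus rose, by 1.11 ± 0.15 (SE, adjusted p = 0.0034), where Lpin1 and Lpin2 fell. Mogat2, the monoacylglycerol acyltransferase best known from intestine, rose by 2.44 ± 0.32 (adjusted p = 0.0033), with -4.25 to -3.07 on the AKP arrays and -1.57 to -0.62 on the AKP::Keap1 arrays. Plpp2, a lipid phosphate phosphatase, rose by 0.80 ± 0.13 (adjusted p = 0.0052). Cds1, which turns phosphatidate towards phosphatidylinositol, had 1.13 ± 0.15 (adjusted p = 0.0035) but was well above background on only 2 of the 4 AKP arrays, its difference was -0.13 after normexp, and it was not called with the slide as a random block (adjusted p = 0.051). In the same mice the bile duct markers were called higher in 10 of 12 (21.7% of all genes). The list's 8 calls became 5 without AKP::Keap1 male 2 or AKP::Keap1 female 2.

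Around lipoprotein lipase, 5 of 14 partner genes were called lower and 1 higher, with a median of -0.34, against 17.4% and 21.7% of all genes. Pcsk5, a convertase that processes these lipases and their inhibitors, had -1.01 ± 0.14 (adjusted p = 0.0036), Angptl8, an inhibitor induced by feeding, -1 ± 0.17 (adjusted p = 0.0070), and Sel1l, needed for the lipase to leave the endoplasmic reticulum, -0.58 ± 0.14 (adjusted p = 0.020). Cd36, a fatty acid receptor, was the gene called higher (0.87 ± 0.10, adjusted p = 0.0024), with 1.25 in males and 0.50 in females. The 6 calls became 3 without AKP::Keap1 male 2, AKP female 2 or AKP::Keap1 female 2, and Sel1l was lost in each of these, without AKP female 1, with the unshifted signals (-0.26) and with the slide as a random block (adjusted p = 0.11).

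Phosphatidylcholine and lysophospholipid enzymes, the substrates' side of Mfsd2a, showed few calls: 1 of 16 higher and 2 lower, against 21.7% and 17.4% of all genes. Their median was -0.27. Lpcat2, an acyltransferase of lysophosphatidylcholine known from inflammatory cells, had 0.99 ± 0.20 (adjusted p = 0.012), and 0.10 after normexp, where it was not called. Lpcat3, the isozyme typical of hepatocytes, had -0.54 ± 0.12 (adjusted p = 0.017), with -0.09 in males and -1 in females. Lcat, which esterifies cholesterol on high-density lipoprotein, had -0.33 ± 0.08 (adjusted p = 0.021). The count was 1 without AKP female 2 and 5 without AKP::Keap1 female 1. Lpcat3 was lost without AKP::Keap1 male 2 or AKP female 2, and Lcat without either AKP male, AKP::Keap1 male 1, AKP female 2 or AKP::Keap1 female 2. With the unshifted signals Lpcat3 (-0.23, adjusted p = 0.21) and Lcat (-0.02, adjusted p = 0.89) were not called, nor with the slide as a random block (adjusted p = 0.13 and 0.070), and Lcat was not after normexp (-0.18, adjusted p = 0.12).

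Beside Lipa in the lysosome, 5 of 15 genes were called lower and none higher, with a median of -0.14, against 17.4% and 21.7% of all genes. Npc1, which exports cholesterol from lysosomes, had -1.16 ± 0.12 (adjusted p = 0.0019), Soat2, which esterifies cholesterol in the endoplasmic reticulum, -0.60 ± 0.08 (adjusted p = 0.0029), and Scarb2, a lysosomal membrane protein, -0.67 ± 0.10 (adjusted p = 0.0052). Lamp2, another membrane protein of lysosomes, had -0.37 ± 0.10 (adjusted p = 0.027). The 5 calls became 3 without AKP male 1, AKP male 2, AKP::Keap1 male 1 or AKP::Keap1 female 2. Lamp2 was lost without each of these and without AKP::Keap1 male 2 or AKP female 1, and with the slide as a random block (adjusted p = 0.090). With the unshifted signals neither Lamp2 (-0.06) nor Soat2 (-0.29) was called.

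In the fasting and glucocorticoid list, which bears on Lpin1 and Mfsd2a as fasting genes, 8 of 17 were called lower and none higher. Of all genes 17.4% were called lower and 21.7% higher, and the list's median was -0.73. Ppargc1a, the coactivator that partners lipin 1, had -1.87 ± 0.29 (adjusted p = 0.0052), Cpt1a, which admits fatty acids to mitochondria, -0.73 ± 0.14 (adjusted p = 0.0088), and Pck1, of gluconeogenesis, -0.85 ± 0.17 (adjusted p = 0.012). Cyp4a14, a fatty acid hydroxylase under Ppara, had -5.62 ± 1.19 (adjusted p = 0.013), with AKP males as far apart as -1.68 and 4. The 8 calls became 5 without AKP male 2, AKP female 2 or AKP::Keap1 female 2 and 4 without AKP::Keap1 male 2. Cpt1a was not called with the unshifted signals (-0.42, adjusted p = 0.064). The circadian clock list had a median of -0.67, and mice of one group lay far apart for some of its genes. In AKP::Keap1 females Dbp was at -0.69 and 4.25 and Ciart at -7.22 and -3.04, both named after their values were seen. In this list 2 of 17 were called lower, a share below that of all genes (17.4%), Hlf (-0.97 ± 0.14, adjusted p = 0.0042) and Bhlhe40 (-1.34 ± 0.35, adjusted p = 0.028). That count was 1 without either AKP male, either AKP::Keap1 male or AKP female 2, which are the fits in which Bhlhe40 was lost, and 5 without AKP::Keap1 female 2. Bhlhe40 was also lost with the unshifted signals (-1.02, adjusted p = 0.072) and the slide block (adjusted p = 0.083). Feeding state and time of day at sampling were not given in the sources used here, and their part in these differences was not tested.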

How the data were processed

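Per the labels, whole-liver RNA of 8 mice was labelled with Cy3 (500 ng each). The deposited scanner files hold intensity values per spot from Agilent Feature Extraction, 10.7.3.1 per the file headers and 10.1 per the submitters' processing notes, with an mm9 annotation. The column used is the authors' processed signal, an intensity that the software had already corrected for background. The value table deposited for the series holds the same intensities (355176 of 355176 values equal), the unshifted signals of one alternative.

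Outlier spots and 1377 control spots of 44397 were left out, and log2 values of spots of one probe were averaged (39429 probes). Accessions named 26055 probes with 19751 symbols (RefSeq, GRCm38.p6); the rest were not used. Each array's 75th percentile was subtracted. A probe was kept if 2 or more of the 8 arrays measured it well above background, and the brightest stood for its gene. Lpl and Lpin1 had 2 probes each. The number of arrays limits the precision.

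Differences were tested two-sided with limma 3.58.1 in R 4.3.3 (1 mean per group, 4 residual degrees of freedom), with Benjamini-Hochberg adjustment over 15834 genes; the fit was tested on simulated data. Deviations of same-numbered mice had correlations of -0.16 to 0.12 between groups (above 0.1 in 2 of 6 pairs), and the main fit did not pair them. With 2 mice per group this cannot exclude a pairing. Alternatives were other background corrections, scalings, filters, probe rules and variance models, a replicate block, a slide block, and leaving out each array. Members and lists were chosen with earlier results of these data known. Named were all members, up to 4 genes per list called by genotype and up to 2 in the interaction by smallest adjusted p, up to 3 most alike genes per member, and Keap1; Srebf2 and the other genes marked so were named after its values were seen.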

Additional observations from a re-analysis of the deposited data

Results flagged for a closer look

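The interaction test of the limma fit, for a genotype difference that differs between the sexes, called 263 of all 15834 genes (1.66%). The adipocyte marker Pparg was 1 of them (-1.47, adjusted p = 0.046). Flagged here are 2 others, the member Mfsd2a and the pathway gene Fasn. For Mfsd2a the interaction was 3.95 (adjusted p = 0.017), the male difference being -3.37 and the female one 0.58. For Fasn it was 1.82 (adjusted p = 0.0499), with -2.36 in males and -0.54 in females. The calls of Mfsd2a and Fasn were lost when any 1 of the 8 arrays was left out. Each group lies on 1 slide, so slide and group cannot be told apart.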

How the results depend on the processing

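Over 18 alternatives, Lipc, Lipg, Gpam, Lpin1 and Lpin2 stayed called lower by genotype, as did Lpin1, Lpin2 and Mfsd2a in males and Lipg and Gpam in females. Of 1381 log2 differences of named genes under an alternative, 1203 kept direction and side of the threshold, 142 lost the call, 23 gained one and 13 changed sign. The sign changes were Dgat1 in males (0.00) and in the interaction (-0.28) with unshifted signals, Lipa in females after quantile normalization (-0.01) and an array-median shift (-0.13), the Lipc interaction after the array-median shift (0.12), the Lipg interaction (0.48) and Cds1 by genotype (-0.13) after normexp, and, without 1 array, Lpl (range -0.01 to 1.01) and Lipa (-0.17 to 0.17; 2 of the fits) in females and the Lipc (-0.56 to 0.39; 2 fits) and Lpl (-0.83 to 0.19) interactions. The number of members called in males was 5 with unshifted signals and 3 to 8 without 1 array; in females it was 2 to 4 without 1 array; in the interaction it was 3 with normexp, the array median or a trended, robust variance and 0 to 0 without 1 array; by sex it was 1 without a filter, 0 with the slide as a random block (correlation 0.23) and 1 to 3 without 1 array. With the replicate block, members called were 8, 8, 4, 1 and 2 in the order genotype, males, females, interaction and sex, and genes called 5663, 3864, 2986, 56 and 2709; it ended the sex call of Gpam (adjusted p = 0.055), the Fasn interaction (0.081) and the Lpin2 sex call in AKP (0.063). Over all genes, calls ranged from 3285 to 8698 by genotype (6181 as reported), 1020 to 8124 in males (4578), 726 to 3800 in females (3399), 0 to 1051 in the interaction (263) and 307 to 4169 by sex (3398). Of the genes called by genotype 3430 were higher and 2751 lower; 89.8% were higher with unshifted signals, 27.6% with the array median and 36.5% with normexp. The cause of these shifts was not tested. Calls per list ranged from 3 to 10 for lipoprotein lipase partners, 6 to 12 for lipolysis, 4 to 12 for phosphatidate steps, 1 to 11 for phosphatidylcholine, 3 to 8 for the lysosome, 4 to 13 for fasting, 5 to 13 for lipogenesis and 1 to 5 for the clock. The slide block was fitted with genotype and sex as separate terms and so gives no value within a sex, and an interaction adds to its spread. A fit without 1 array leaves a group with 1 mouse, which is assumed to vary like the others. Normexp on mean signals was not run, since the files used here hold median signals, which were used in its place after the data were seen. Lipg is limited by signal over background in AKP::Keap1 mice.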
